A study of Mus musculus with 2 samples.

Results

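The enzyme genes of glycolysis, the pentose phosphate pathway, glycogen turnover and the tricarboxylic acid (TCA) cycle were examined in macrophages of the mouse colon. A list of 58 enzyme genes was matched by symbol to the array's probe sets, the groups of probes that report a transcript, and 104 probe sets listed a member. Of the 58 members, 54 had at least 1 probe set of their own, out of 19938 genes with such a probe set on the array. Gapdh, which encodes glyceraldehyde-3-phosphate dehydrogenase, was listed only on probe sets that name several genes, and Gpi1, Eno1 and G6pdx were on no listed probe set, so their expression was not analysed here. The series held 2 arrays, 1 per group. The control array carried RNA of lamina propria macrophages from mice given drinking water for 5 days. The DSS array carried RNA of the same gate from mice given 3% (wt/vol) dextran sulfate sodium, a polymer that injures the colon lining, in the drinking water for 5 days. Both populations were sorted as CD45+IAb+CD11b+F4/80+CD103-, and the labels give no strain, age or number of mice behind an array.

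Glycolysis splits glucose into pyruvate in the cytosol, and lactate dehydrogenase turns pyruvate into lactate. The pentose phosphate pathway branches off at glucose-6-phosphate and yields NADPH and ribose phosphate, glycogen enzymes store glucose units and release them, and the TCA cycle oxidises acetyl-CoA in mitochondria. Macrophages stimulated by bacterial products are known for high glucose use and for diverting the TCA intermediate cis-aconitate to itaconate.

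Neither group has a second array, so no spread between replicates and no test can be given, and each difference compares these 2 arrays. Signals are RMA values on the log2 scale, and a difference is the DSS signal minus the control signal. A gene counted as past the signal rule when its signal reached the median of an array, 5.70 for control or 5.62 for DSS, on at least 1 of them. This was so for 52 of the 54 members and for 11163 genes in all. As yardsticks, differences over those genes had a robust SD of 0.39 and a median of -0.03, and probe sets of the same gene differed with a pooled SD of 0.28 over 641 genes.

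The sorted populations carried macrophage genes on both arrays, and genes of neutrophils and monocytes were far higher on the DSS array. The 12 macrophage markers were all above the medians of both arrays, with a median difference of -0.61 and 0 at 2-fold. Their differences ran from -0.99 to 0.83, and their summed linear signal was 14.88 in control and 14.56 in DSS as log2. Ptprc, H2-Ab1, Itgam and Adgre1 in this list encode the proteins the gate sorted for, so their presence was set by the sort. All 10 neutrophil markers were at least 2-fold higher on the DSS array, with a median difference of 5.27 and a summed signal of 10.46 in control and 14.83 in DSS. The 6 measured monocyte markers did likewise, with a median of 3.74 and sums of 10.60 and 13.92. Of the neutrophil markers, 3 of 10 reached the median on the control array, and the dimmest there was Ly6g at 4.04. Of the monocyte markers, 5 of 6 reached it there, with Ccr2 at 9.77 on the control array. No cell type share was measured, so a difference below can come from which cells were in the gate or from RNA per cell, and these cannot be told apart in bulk RNA. The part of neutrophil and monocyte RNA in the enzyme differences was not tested.

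**Figure D1:**
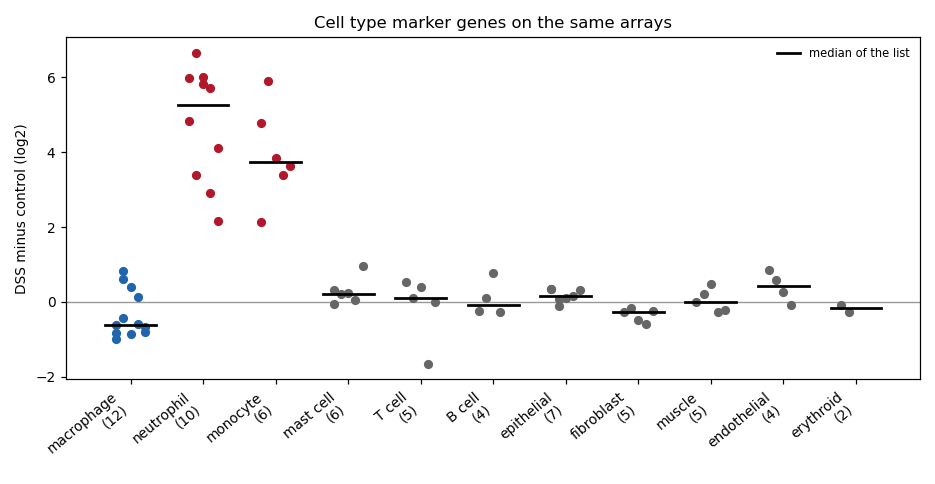
Difference between the arrays (DSS minus control, log2) for each cell type marker gene, with the number of measured markers in brackets and the median of each list as a bar. The 10 neutrophil and 6 monocyte markers lie at 2.13 or above, while the medians of the other lists lie between -0.61 and 0.43.

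The pathways differed in where their genes lay. Member genes of glycolysis, the pentose phosphate pathway and glycogen turnover were mostly higher on the DSS array, whereas member genes of the TCA cycle were spread about 0. The median difference was 0.66 over 16 glycolysis genes, 0.63 over 6 pentose phosphate genes, 0.56 over 7 glycogen genes and -0.03 over 19 TCA cycle genes. The medians of the first 3 pathways differed by 0.10 at most, and their means were 0.61, 0.55 and 0.75. With 1 array per group, no error of a pathway median is at hand to rank them. The glycolysis median exceeded the TCA median by 0.70. No TCA gene reached the median of glycolysis, of the pentose phosphate pathway or of glycogen turnover, and 9 of the 16 glycolysis genes lay above the highest TCA gene, Dlst, at 0.49. The direction of the TCA median itself turned under another scaling (0.05 when each array was centred on its median), so none is given for it. Among the 52 members, 7 were at least 2-fold higher in DSS, or 13.5%, where 3.99% of all genes were. A single member, Idh2, was at least 2-fold lower, or 1.92%, where 3.03% of all genes were. At any size, 38 of 52 members lay above 0, against 46.4% of all genes, and 14 lay below it, against 53.0%. Gys1 and Upp1 passed the signal rule through the DSS array only, and without them 6 of 50 were at least 2-fold higher, or 12.0%. Of all genes, 10673 passed on the control array. The share of these at 2-fold was not counted, so the 3.99% is not matched to the 6 of 50.

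**Figure D2:**
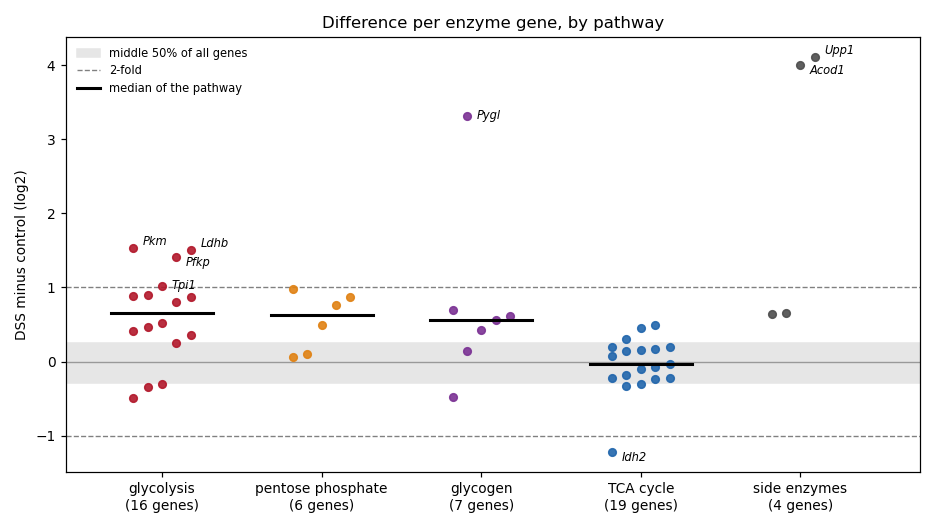
Difference between the arrays (DSS minus control, log2) for each enzyme gene past the signal rule, by pathway; black bars mark pathway medians, dashed lines 2-fold and the grey band the middle 50% of all genes. The TCA cycle genes centre at -0.03 with Idh2 alone past 2-fold, and the glycolysis genes centre at 0.66.

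Glycolysis genes were higher on the DSS array along most of the lower pathway. At the entry, the hexokinases, which phosphorylate glucose, had small differences. Hk2 read 8.08 in control and 8.49 in DSS, and Hk3, an isoform of myeloid cells, read 7.48 and 8.0. Hk1 had 2 probe sets of its own, and the brighter read 11.53 and 11.78. That probe set lists a single accession, which the 16 probe sets shared by Hk1 and the ribosomal protein gene Rpl17 also list, so which of the genes it reports is uncertain. The other Hk1 probe set, which lists RefSeq mRNAs, read 7.48 and 7.72, a difference of 0.23 beside 0.25. All 3 hexokinase differences were positive and under 1.5-fold.

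Phosphofructokinase, which commits the sugar to glycolysis, is made from 3 genes, and their differences diverged. Pfkp, the platelet type, read 8.05 in control and 9.47 in DSS, a 2.67-fold higher value. Pfkl, the liver type, read 5.99 and 6.89, or 1.86-fold. Pfkm, the muscle type, read 6.26 and 5.91, a difference of -0.35. Thus the platelet and liver types were higher in DSS and the muscle type was not. The Pfkm difference is smaller than the robust SD of 0.39 over genes past the signal rule. Pfkl in control and Pfkm in DSS lay near the array medians of 5.70 and 5.62, so these sizes are less certain than that of Pfkp. The genes of the bifunctional enzymes that set the level of the phosphofructokinase activator fructose-2,6-bisphosphate had differences of opposite sign, with Pfkfb4 at 0.35 and Pfkfb3 at -0.30. Both values are smaller than the robust SD of 0.39, and Pfkfb4 read 5.78 in control, barely at the median. Of the aldolases, which split the sugar, Aldoa read 10.14 and 10.61 and Aldoc 6.92 and 6.43, so that here too an isoform pair had differences of opposite sign, 0.47 and -0.49.

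From triose phosphate to lactate, each of the 6 members with a probe set of its own (Tpi1, Pgk1, Pgam1, Pkm, Ldha and Ldhb) was higher in DSS. Tpi1, triose phosphate isomerase, read 8.77 in control and 9.79 in DSS, 2.03-fold higher and just past the 2-fold size. Pgk1, which forms ATP from bisphosphoglycerate, was on 3 probe sets, 2 of them with identical values, and its differences were 0.89 and 0.81. Pgam1, the phosphoglycerate mutase, had differences of 0.87 on 2 probe sets with identical values and 1.05 on another. Identical values show that these probe sets are not separate measurements.

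By the brightest probe set, pyruvate kinase and lactate dehydrogenase B had the highest differences of the pathway, in an order that turned under loess centring. With the mean of a gene's probe sets, Pkm was at 1.43, Pfkp at 1.42 and Ldhb at 1.26, so Ldhb fell below Pfkp. Pkm, the pyruvate kinase gene, whose M1 and M2 splice forms these probe sets do not separate in the annotation used, read 9.16 in control and 10.70 in DSS, 2.89-fold higher, and its other probe set gave 2.51-fold. For lactate dehydrogenase, Ldha read 9.18 and 9.99, or 1.75-fold higher. Ldhb, the form of oxidative tissues, read 6.07 and 7.58, or 2.84-fold. Its other probe set read 5.73 in control, barely at the median, and 6.75 in DSS, or 2.02-fold, just past the 2-fold size. The fold of Ldhb starts from a control signal near the array's median, so the size is less certain than that of Pkm. Over the 11 genes from phosphofructokinase to lactate dehydrogenase, the median difference was 0.89, with 4 higher by 2-fold or more (3.99% of all genes), 8 higher by 1.5-fold or more (9.85% of all genes) and 0 lower by 2-fold or more (3.03% of all genes). Beside these differences stand the neutrophil and monocyte marker medians of 5.27 and 3.74.

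The 25 probe sets that name Gapdh together with other loci had differences between 0.17 and 0.41, with a median of 0.22 and control signals from 9.64 to 12.77. They lay below the differences of Tpi1 and Pgk1, the steps before and after it. Since each of these probe sets is assigned to several genes, no value is given to Gapdh itself.

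**Figure D3:**
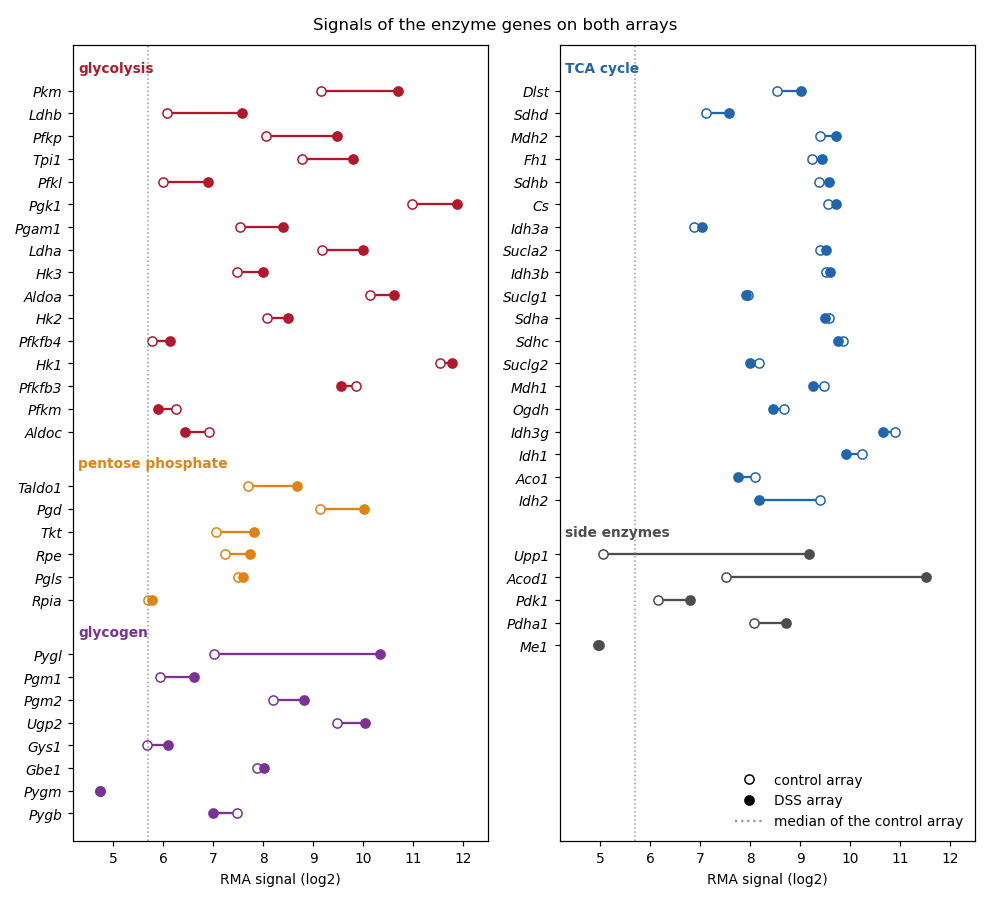
RMA signal (log2) of the 54 enzyme genes with a probe set of their own on the control array (open circles) and the DSS array (filled circles), ordered by difference within each pathway, with the control median as a dotted line. Upp1, Acod1 and Pygl have the longest lines to the right and Idh2 the longest to the left; the Hk1 line is that of the brighter probe set, which may report Rpl17.

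In the pentose phosphate pathway, the difference was largest in the genes that rearrange sugars and in the second NADPH-forming step. Pgd, the 6-phosphogluconate dehydrogenase that forms NADPH, read 9.14 in control and 10.01 in DSS, 1.83-fold higher. Taldo1, transaldolase, read 7.71 and 8.69, or 1.97-fold, and just missed the 2-fold size. Tkt, transketolase, read 7.05 and 7.81, or 1.69-fold. The isomerising enzymes and the lactonase had smaller values, with Rpe, the ribulose phosphate epimerase, at 0.50, Pgls, the lactonase, at 0.11 and Rpia, the ribose phosphate isomerase, at 0.06. All 6 were above 0, 0 of 6 were at 2-fold and 3 were at least 1.5-fold higher, where 9.85% of all genes were. Rpia read 5.71 on the control array, barely at its median, where signal and background are not separable.

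Among glycogen genes, a single enzyme stood out. Pygl, the liver type of glycogen phosphorylase, which releases glucose-1-phosphate from glycogen, read 7.03 in control and 10.34 in DSS. This is 9.93-fold higher and the 48th highest difference among the 11163 genes. Pygb, the brain type of the same enzyme, read 7.48 and 6.99, a difference of -0.48, and Pygm, the muscle type, read 4.74 on both arrays, below their medians. Phosphorylase thus had a much higher signal from the gene of the liver type alone. Pgm1 and Pgm2, phosphoglucomutases that interconvert glucose-1-phosphate and glucose-6-phosphate, had differences of 0.69 and 0.62. Ugp2, which makes the UDP-glucose for glycogen synthesis, read 9.47 and 10.03. Gys1, glycogen synthase, read 5.67 and 6.10, from a control signal below the median, and Gbe1, the branching enzyme, read 7.88 and 8.03. Of the 10 neutrophil markers, whose median difference was 5.27, 8 were higher on the same array by more than Pygl and 2 by less. The 6 measured monocyte markers had differences from 2.13 to 5.9, with a median of 3.74.

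TCA cycle genes gave 18 of 19 differences under 1.5-fold in either direction, so 1 of 19 was lower by that size, where 8.80% of all genes were. The exception was Idh2, the mitochondrial isocitrate dehydrogenase that forms NADPH, which read 9.40 in control and 8.18 in DSS and was 2.33-fold lower. Its cytosolic counterpart Idh1 read 10.23 and 9.92, a difference of -0.31. The 3 subunit genes of the NAD-dependent isocitrate dehydrogenase had differences of 0.16 for Idh3a, 0.07 for Idh3b and -0.24 for Idh3g. The step from isocitrate was therefore lower by 2-fold in the NADP-dependent mitochondrial form, while the sign for Idh3b turned under loess centring.

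The other TCA genes lay between -0.33 and 0.49. Dlst, the succinyltransferase subunit of 2-oxoglutarate dehydrogenase, read 8.53 in control and 9.02 in DSS, while Ogdh, the first subunit of that complex, read 8.68 and 8.46. Sdhd, a membrane anchor of succinate dehydrogenase, read 7.12 and 7.57. Sdhb had a difference of 0.19, Sdha of -0.08 and Sdhc of -0.10, and the sign for Sdha turned under median centring. Of the succinyl-CoA ligase genes, Sucla2 had a difference of 0.14, Suclg1 of -0.03, whose sign turned under median centring, and Suclg2 of -0.19. Mdh2, the mitochondrial malate dehydrogenase, read 9.40 and 9.71 and its cytosolic counterpart Mdh1 9.47 and 9.25. Aco1, the cytosolic aconitase and iron-responsive RNA-binding protein, read 8.09 and 7.77. Citrate synthase (Cs) and fumarase (Fh1) had differences of 0.16 and 0.20. The 3 genes whose enzyme is cytosolic, Aco1, Idh1 and Mdh1, were below 0, between -0.33 and -0.22, as were 53.0% of all genes, and 8 of the 15 mitochondrial ones were above 0, as were 46.4% of all genes. Most of these values are smaller than the SD of 0.28 between probe sets of a gene.

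The 5 side enzymes, which feed the pathways or branch off them, held the 2 highest differences of all members. Acod1, which makes itaconate from cis-aconitate, was 16.0-fold higher in DSS, the 27th highest of 11163 genes. Upp1, uridine phosphorylase, which releases ribose-1-phosphate from uridine, read 5.06 in control and 9.17 in DSS, a difference of 4.11 that ranked 26th. As the control signal of Upp1 lay under the array's median, where signal and background are not separable, its 17.3-fold is not exact. The 10 neutrophil markers ranged from 2.17 to 6.65 on the same arrays, 7 of them above both genes and 3 below both. The 6 measured monocyte markers ranged from 2.13 to 5.9. Pdha1, a subunit of pyruvate dehydrogenase, read 8.07 and 8.72, and Pdk1, a kinase that inhibits that complex, read 6.15 and 6.81, so the enzyme and its inhibitor had like differences, 0.65 and 0.66. Me1, the cytosolic malic enzyme, read 4.98 and 4.95, below both medians.

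The members' promoters were read for the core letters bound by hypoxia-inducible factor, ACGTG or GCGTG on either strand. The window was the RefSeq one of GRCm38.p6, 250 bases before the transcript start to 50 after it, and a gene held the letters where any of its windows did. Among members with a probe set of their own, this was so for 15 of 16 glycolysis genes (93.8%), 5 of 6 pentose phosphate genes (83.3%), 6 of 8 glycogen genes (75%), 11 of 17 TCA genes with a window in the table (64.7%) and 5 of 5 side enzyme genes, against 46.7% of all 27025 genes with a window. Genes with several starts have more windows to match. By window, over all listed members, the shares were 25 of 31 for glycolysis (80.6%) and 17 of 23 for the TCA cycle (73.9%), against 43.8% of all 32851 windows, and 6 of the 23 TCA windows were those of Ogdh. The letters hold a CpG, and the median window held 20 CpGs in glycolysis, 23 in the TCA cycle and 7 overall. The palindrome CACGTG, which holds ACGTG on both strands and is also the E-box, was in 7.15% of all windows. It was in 3 of 31 for glycolysis, those of Ldha, Pfkfb3 and Pfkm, and in 3 of 23 for the TCA cycle, all of Ogdh. It was in 0 of the pentose phosphate, glycogen and side enzyme windows. A match is a description of the sequence, not a site.

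The 250 bases before the start are shown for the 8 members past 2-fold, at the start furthest upstream where a gene has several. Whether the differences relate to these stretches was not tested. They are written in the direction of the gene, with the searched letters in capitals on whichever strand they lie.
Pkm (chr9:59656326-59656575, plus strand): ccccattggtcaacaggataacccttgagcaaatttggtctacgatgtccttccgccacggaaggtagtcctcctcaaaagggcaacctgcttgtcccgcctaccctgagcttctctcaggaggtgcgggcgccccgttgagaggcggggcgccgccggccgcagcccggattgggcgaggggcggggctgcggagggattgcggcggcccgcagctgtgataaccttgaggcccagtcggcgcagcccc
Ldhb (chr6:142507958-142508207, minus strand): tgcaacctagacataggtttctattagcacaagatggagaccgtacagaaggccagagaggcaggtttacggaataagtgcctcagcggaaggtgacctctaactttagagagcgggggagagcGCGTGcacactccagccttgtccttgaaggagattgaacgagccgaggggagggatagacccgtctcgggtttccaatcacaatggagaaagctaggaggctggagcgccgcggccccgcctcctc
Pfkp (chr13:6648772-6649021, minus strand): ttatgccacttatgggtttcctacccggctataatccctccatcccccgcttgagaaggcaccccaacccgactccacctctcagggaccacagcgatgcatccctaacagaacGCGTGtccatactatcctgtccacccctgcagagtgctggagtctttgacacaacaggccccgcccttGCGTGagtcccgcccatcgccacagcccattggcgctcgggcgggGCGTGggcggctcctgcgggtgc
Tpi1 (chr6:124814159-124814408, minus strand): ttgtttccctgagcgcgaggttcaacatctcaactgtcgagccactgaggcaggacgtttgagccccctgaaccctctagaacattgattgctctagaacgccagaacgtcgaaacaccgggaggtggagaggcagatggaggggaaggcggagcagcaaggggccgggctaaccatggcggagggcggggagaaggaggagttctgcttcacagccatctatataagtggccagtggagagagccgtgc
Pygl (chr12:70227684-70227933, minus strand): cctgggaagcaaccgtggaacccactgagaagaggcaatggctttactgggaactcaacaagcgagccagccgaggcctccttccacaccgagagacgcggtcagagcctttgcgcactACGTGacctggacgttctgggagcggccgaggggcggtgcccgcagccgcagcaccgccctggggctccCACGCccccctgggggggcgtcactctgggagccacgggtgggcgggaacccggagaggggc
Acod1 (chr14:103046762-103047011, plus strand): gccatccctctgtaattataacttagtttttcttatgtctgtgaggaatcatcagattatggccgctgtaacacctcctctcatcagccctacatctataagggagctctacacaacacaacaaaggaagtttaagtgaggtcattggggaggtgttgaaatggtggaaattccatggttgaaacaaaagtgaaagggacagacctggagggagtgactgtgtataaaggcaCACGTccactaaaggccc
Upp1 (chr11:9117758-9118007, plus strand): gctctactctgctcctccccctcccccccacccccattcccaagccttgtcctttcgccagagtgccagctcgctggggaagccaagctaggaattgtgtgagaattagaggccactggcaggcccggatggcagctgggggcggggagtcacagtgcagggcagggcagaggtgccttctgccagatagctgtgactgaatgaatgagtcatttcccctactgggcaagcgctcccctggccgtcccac
Idh2 (chr7:80115351-80115600, minus strand): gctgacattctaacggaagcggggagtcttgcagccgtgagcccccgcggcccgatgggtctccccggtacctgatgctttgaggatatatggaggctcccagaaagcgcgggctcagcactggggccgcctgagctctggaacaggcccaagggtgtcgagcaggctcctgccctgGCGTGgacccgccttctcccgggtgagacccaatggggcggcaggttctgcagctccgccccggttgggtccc
Pfkp holds 3 matches in this stretch, Pygl 2, and Ldhb, Acod1 and Idh2 1 each. Pkm, Tpi1 and Upp1 hold 0 here. Another start of Pkm has 1 match before it, as does another start of Upp1.

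Genes around the pathways were taken from a second list of 101 genes, of which 93 had a probe set and 66 passed the signal rule. Of these 66, 10 were higher in DSS by 2-fold or more and 3 lower by as much, where 3.99% and 3.03% of all genes were. Without the 3 genes that passed through the DSS array only, Egln3 among them, 9 of 63 were higher by that size. No share of all genes was counted under the same restriction. Transport of glucose and lactate held 4 of the 10, in 7 genes. Slc2a3, a high-affinity glucose transporter, read 5.72 in control and 8.04 in DSS, a difference of 2.32 from a control signal barely at the median. Slc2a6, a lysosomal hexose transporter, read 6.91 and 8.05, and the differences of Slc2a1 and the lactate exporter Slc16a3 were 1.76 and 2.13. Slc16a7, another monocarboxylate transporter, lay furthest the other way at -0.57. Slc37a2 and Slc2a8, another hexose transporter, were also below 0, at -0.51 and -0.35. The 4 genes past 2-fold thus encode 3 hexose transporters and the lactate exporter.

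Further enzymes of the pathways held few differences of 2-fold, a size by which 3.99% of all genes were higher and 3.03% lower. Their medians did not repeat the order seen among the members. The median difference was 0.25 for further glycolysis genes and -0.18 for further pentose phosphate genes. It was -0.03 for further glycogen genes and 0.17 for further genes of the TCA cycle and pyruvate. Adpgk, a glucokinase that uses ADP, was 2.20-fold higher and the only 1 of 9 further glycolysis genes at 2-fold, while G6pc3, a glucose-6-phosphatase, had a difference of -0.51. Of 5 further pentose phosphate genes, 0 were at 2-fold. Rbks, ribokinase, was at 0.84, and Prps2, which makes phosphoribosyl pyrophosphate, was at -0.99. In glycogen turnover, Gyg, the glycogenin that primes the polymer, read 8.21 in control and 9.92 in DSS, 3.27-fold higher. Pgm2l1, which makes glucose bisphosphate, read 8.46 and 6.74, 3.28-fold lower. The regulatory subunit gene Ppp1r3b was at 0.82 and the other 9 of 12 lay within 1.5-fold.

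Regulators of pyruvate dehydrogenase had the largest values next to the TCA cycle. Pdk3, an inhibiting kinase, read 7.39 in control and 8.89 in DSS, 2.84-fold higher. Pdp1, the phosphatase that activates the complex, read 8.27 and 7.17, a difference of -1.10. Of the other kinase genes, Pdk2 and Pdk4 lay below both medians with differences of -0.012 and 0.053, and the other phosphatase gene, Pdp2, was at -0.21. The complex genes Dld, Pdhb, Pdhx and Dlat had differences of 0.44, 0.10, 0.60 and -0.08. Sdhaf2, an assembly factor of succinate dehydrogenase, was 2.01-fold higher, just past the size. At 2-fold, the 20 genes of this group held 2 higher and 1 lower, where 3.99% and 3.03% of all genes were. At 1.5-fold they held 7 higher and 1 lower, where 9.85% and 8.80% of all genes were. Among 13 regulators, Hif1a, the oxygen-regulated subunit of hypoxia-inducible factor, read 9.94 and 11.47, a difference of 1.52, and Egln3, a hydroxylase that marks it for decay, had a difference of 2.49 from a control signal below the median. Txnip, which restrains glucose uptake, read 11.13 and 9.94, a difference of -1.18. Myc was at -0.35 and Arnt, the partner of Hif1a, at 0.30. The 10 neutrophil markers were higher by a median of 5.27 on the same arrays, and the 6 measured monocyte markers by a median of 3.74.

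**Figure D4:**
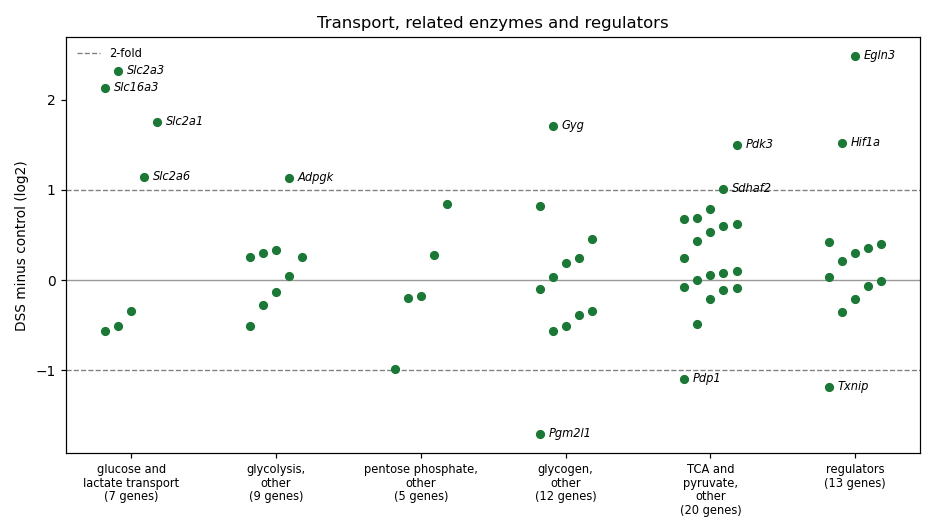
Difference between the arrays (DSS minus control, log2) for genes of transport, related enzymes and regulators past the signal rule, with the number of genes in brackets and dashed lines at 2-fold. Names are given for the 10 higher and 3 lower genes past 2-fold.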

How the data were processed

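Per the labels' protocols, biotin-labelled cRNA for Affymetrix arrays was made from 100 ng RNA of sorted cells. The deposited table holds log2 signals of 35556 probe sets. RMA (background correction, normalisation between arrays and summary of probes) is named in the submitters' processing notes. Which settings and which genome build were used is not given in the sources here. The method shrinks differences of dim probe sets and can remove a global shift between arrays. Values were used as deposited, without detection calls.

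Gene names came from the platform's annotation, which gives 1 symbol to 21789 probe sets and several to 1621. All 54 members with a probe set of their own matched RefSeq (GRCm38.p6) by Entrez identifier. The brightest probe set by mean signal stood for a gene. Array medians rest on 28939 probe sets, without identifiers below the lowest annotated one. The number of arrays limits the precision, and batch cannot be told apart from treatment. The members, lists and rules were chosen with earlier results of these data known. Every member is named, and of the second list those at 2-fold or furthest in each direction of a group, with some others as illustrations.

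Alternatives covered median and loess centring (span 0.4), the probe set chosen, the signal rule, shared probe sets, the mean of a pathway, sizes of 1.5-fold and 3-fold and the placing of the 5 side enzymes (Acod1, Pdha1, Pdk1, Me1 and Upp1). The count at 2-fold was tested on simulated data, with changes well past that size put into genes with a single probe set, so their recovery was largely set in advance. Normalisation, the choice of probe set, pathway medians and the promoter search were not covered. Python 3.11.15, numpy 2.4.6, pandas 2.3.3, statsmodels 0.14.6 and matplotlib 3.10.9 were used.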

Additional observations from a re-analysis of the deposited data

How the results depend on the processing

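The medians of glycolysis, the pentose phosphate pathway and glycogen turnover kept their sign and moved by less than 0.28 under every alternative run. The TCA median turned positive, to 0.050 under median centring and to 0.11 with Acod1, Pdha1 and Pdk1 counted in (Me1 did not pass the signal rule). With median centring, Sdha (0.0049) and Suclg1 (0.050) turned positive, and with loess centring Idh3b turned to -0.028. Median centring adds the same amount to every difference, and counting genes in changes the list. Loess centring subtracts a trend fitted on the mean signal, which moved Idh3b from 0.07 to -0.028. Ldhb, and not Pkm, led glycolysis under loess centring, and Ldhb fell below Pfkp with the mean of probe sets. The count of 7 members at least 2-fold higher was 8 under median centring, which brings in Taldo1, and 6 under loess centring, which takes out Tpi1. It was 18 at 1.5-fold and 3 at 3-fold, where the count of lower members was 0. Taking the probe set with a RefSeq mRNA, an alternative chosen after seeing the data, left all 52 member differences within 0.28 and of the same sign. With 1 array per group, leaving out a replicate is impossible. No paired analysis was possible because each group has 1 array. Dim signals, such as Upp1 in control, limit the size of a fold.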
